A study of Mus musculus with 8 samples.

Results

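Collagen genes were examined in mouse brown adipose tissue, a fat depot that burns fuel for heat, from 4 mice labelled WT and 4 labelled TG, which the study's design text calls CLCF1-ATG. CLCF1, a relative of interleukin-6, signals through gp130 receptors and STAT3. The members were the protein-coding rows of the deposited table whose symbol has the form Col, a number, a and a number, which gave 44 of the 54532 genes. Of these, 11 encode chains of fibrillar collagens, 8 encode chains of basement membrane collagens (types IV, XV and XVIII), and the other 25 belong to beaded filament, network, fibril-associated, transmembrane and further types. The mice carry the label numbers 1, 2, 3 and 5 in both groups. The sources used here do not give strain, sex, age or the promoter that drives the transgene. Values are FPKM, read fragments scaled by gene length and library size, as deposited. Each log2 difference is TG minus WT in log2(FPKM + 1), a scale on which low genes appear to change less than they do.

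Collagens are made of 3 chains wound into a triple helix, which needs glycine, the smallest amino acid, at 1 of every 3 residues. Fibrillar collagens (types I, III and V in soft tissue) assemble into the tension-bearing fibres between cells. Type IV collagen forms the sheet of the basement membrane, which surrounds each adipocyte and lines vessels, and types XV and XVIII are bound to that sheet. Type VI collagen forms fine filaments between the basement membrane and the fibres and is abundant in fat.

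Fibrillar members differ from the rest in their coding sequence. In the transcript with the longest coding sequence of each gene (GENCODE M21, where all 44 members were found at the deposited coordinates), blocks of at least 5 triplets that start with a glycine codon (GGN) were located. All 11 fibrillar genes had a longest block of 216 to 344 triplets; Col24a1 and Col27a1 had a second block of 93 triplets after it. In the basement membrane genes the longest block had 30 to 66 triplets, and in the other genes 23 to 113. The stretches shown here are each of 36 codons of the sense strand, read 5′ to 3′ with the glycine codons of the blocks in capitals. Those of Col1a1, Col3a1 and Col27a1 were cut inside the longest block, and those of Col4a1 and Col15a1 across a gap between blocks. They illustrate a block and a break, and the contrast between them follows from that choice. In the basement membrane stretches 2 codons lie between the blocks of Col4a1 and 3 codons between those of Col15a1. A stretch of Col6a1 cut inside its longest block was unbroken too.
Col1a1: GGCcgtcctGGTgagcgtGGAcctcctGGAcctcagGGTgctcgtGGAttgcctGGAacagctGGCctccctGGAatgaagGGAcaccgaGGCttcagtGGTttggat
Col3a1: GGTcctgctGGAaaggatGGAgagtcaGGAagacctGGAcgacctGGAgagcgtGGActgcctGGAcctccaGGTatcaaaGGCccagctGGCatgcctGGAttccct
Col27a1: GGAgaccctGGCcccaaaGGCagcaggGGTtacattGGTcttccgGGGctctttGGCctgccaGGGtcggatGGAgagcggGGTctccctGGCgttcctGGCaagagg
Col4a1: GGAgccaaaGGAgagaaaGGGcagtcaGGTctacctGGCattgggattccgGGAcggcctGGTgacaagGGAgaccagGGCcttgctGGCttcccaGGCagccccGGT
Col15a1: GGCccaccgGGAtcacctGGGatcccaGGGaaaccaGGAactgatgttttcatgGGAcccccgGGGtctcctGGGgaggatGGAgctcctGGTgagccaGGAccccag

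**Figure D1:**
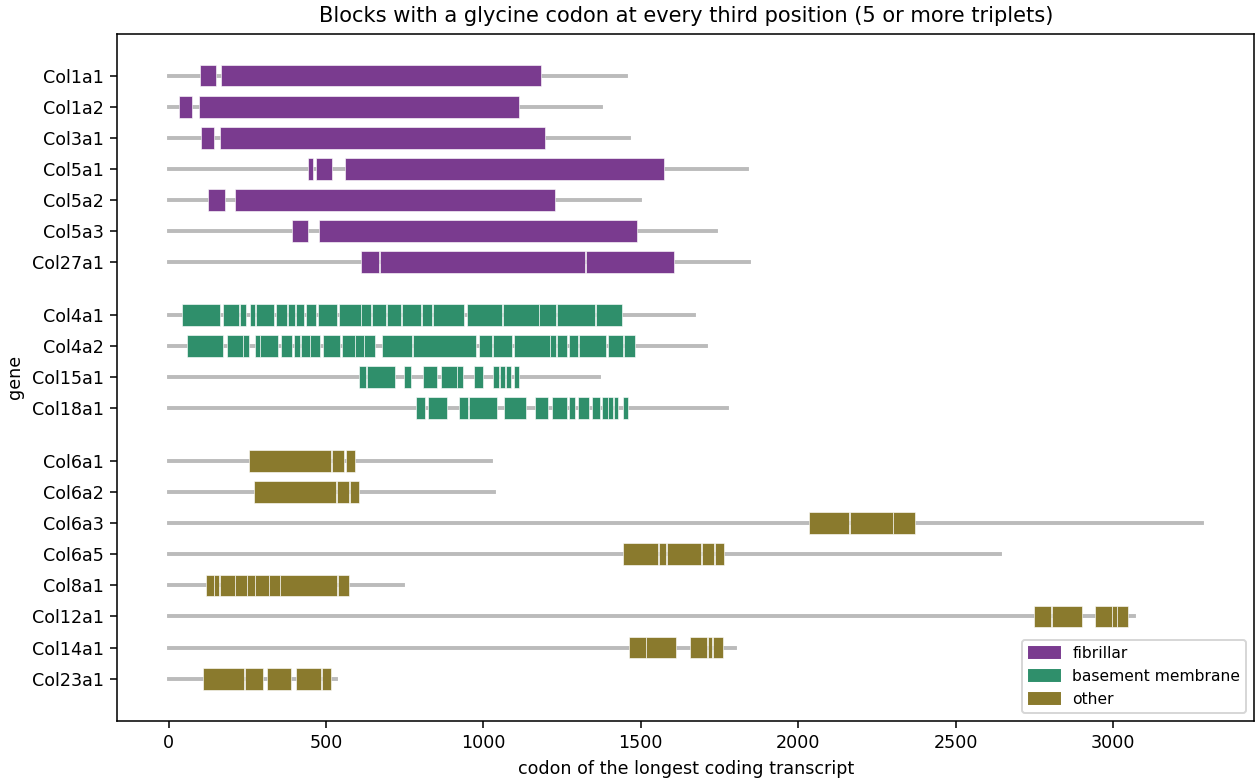
Blocks of triplets that start with a glycine codon along the coding sequence of the 19 tested collagen genes; the x axis counts codons, coloured bars are blocks of 5 or more triplets and the grey line is the whole coding sequence. The longest block of the fibrillar genes has 217 triplets in Col27a1, which holds another of 93, and 337 or more in the others shown, and Col4a1 holds 22 blocks of at most 40.

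Clcf1 followed the labels: WT libraries had 0.434 to 3.40 FPKM and TG libraries 78.7 to 89.9 FPKM (log2 difference 4.87). The brown adipocyte markers Ucp1, Cidea, Cox8b, Elovl3 and Kcnk3 were detected in both groups, 4 of them lower in TG, with a summed level of 6478 to 9121 FPKM in WT and 593 to 995 FPKM in TG. Reads recovered from the FPKM ranged from 13734231 to 15751302 among WT libraries and from 18494022 to 20183840 among TG libraries. The total by which the FPKM were divided differed from these reads, which were 1.02 to 1.22 times that total in WT and 0.822 to 0.883 times in TG, and mitochondrial reads made up 24.1% to 37.5% in WT and 6.09% to 7.34% in TG. Skeletal muscle markers summed to 2186 FPKM in WT 2 and 1177 FPKM in TG 5, against 39.2 to 221 FPKM in the other libraries, so counts are also given without these 2 libraries where that changed them.

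Of the 44 collagen genes, 19 had 0.5 FPKM or more in 4 or more libraries and entered the limma test, which covered 12508 genes of the table with a Benjamini-Hochberg adjusted p of 0.05 as its threshold. In TG 14 were higher and 2 lower, and 3 did not pass; the median log2 difference was 0.88. Over all tested genes 22.3% were higher, 21.8% were lower, 44.1% were called in either direction and the median log2 difference was 0.01. Col6a5 passed the filter through the TG libraries alone, so it had to differ, and of the other 18 genes 13 were higher and 2 lower. Col8a1 had 1 WT library above the filter. The count fell to 9 higher and 1 lower without WT 2 and TG 5, where 16.1% of all tested genes were higher and 16.6% lower. With reads divided by each library's recovered total, which raised the median change of all genes by 0.30, it was 17 higher and 1 lower, and the split over all genes moved from 2788 higher and 2725 lower to 5536 higher and 1442 lower. In bulk tissue, more cells of a collagen-making type and more collagen RNA per cell cannot be told apart.

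**Figure D2:**
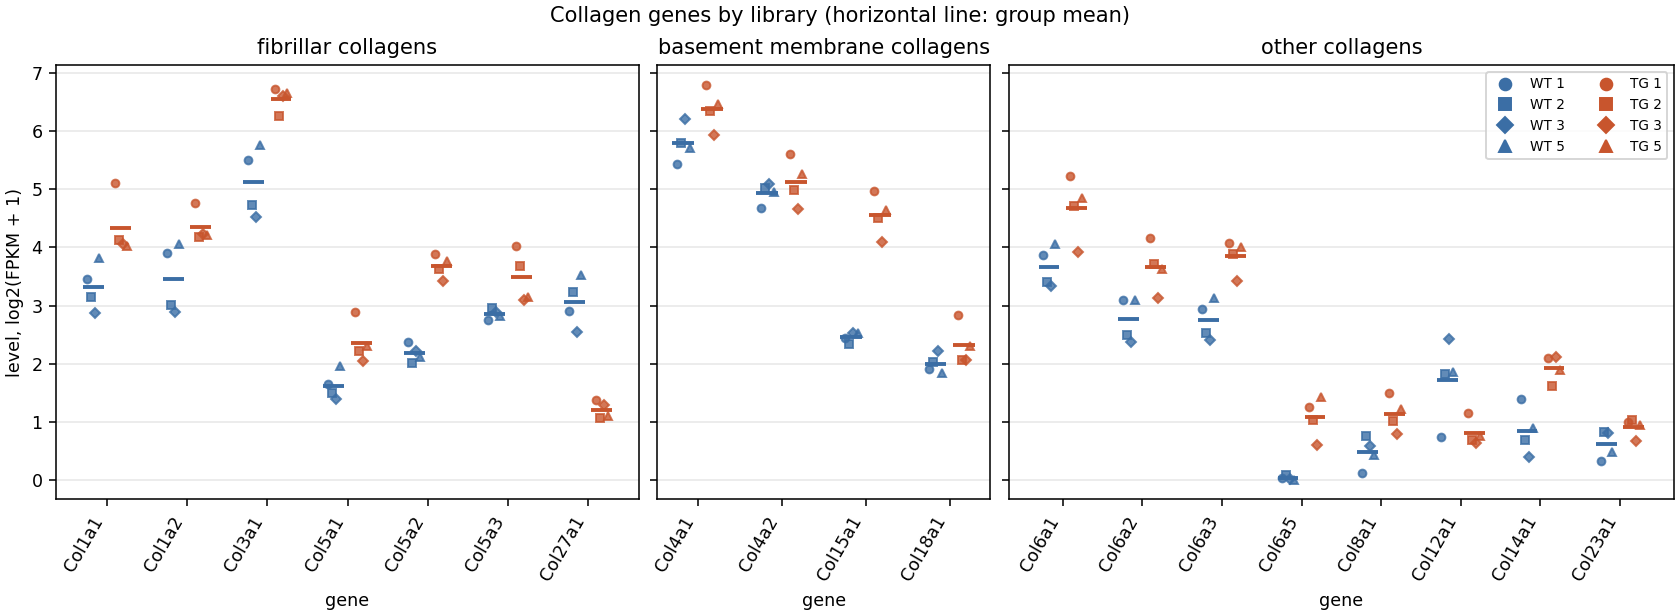
Level of each tested collagen gene in every library, as log2(FPKM + 1), in 3 panels by class; colours give the group, symbols the label number and horizontal lines the group mean. The 4 TG values lie above the 4 WT values for Col3a1, Col5a2 and Col15a1 and below them for Col27a1.

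Of the fibrillar genes, 6 of the 7 tested rose and 1 fell (median log2 difference 0.88), against 22.3% higher and 21.8% lower of all tested genes. Without WT 2 and TG 5, Col1a2 and Col5a1 no longer passed. None of the 7 had overlapping groups, against 42.6% of all tested genes without overlap. Col3a1 (ENSMUSG00000026043, mm10 chr1:45311538-45349706) encodes the single chain of type III collagen, the fibre of stretchable tissue. Its level was 44.3, 25.7, 22.1 and 53.2 FPKM in WT 1, 2, 3 and 5 and 105, 75.9, 96.7 and 99.9 FPKM in TG 1, 2, 3 and 5. WT 1 and WT 5 stood above WT 2 and WT 3, and all TG libraries stood above all WT libraries. The WT mean of Col3a1 was 36.3 ± 14.9 and the TG mean 94.4 ± 12.8 FPKM (SD over 4 mice each), 2.60-fold higher (log2 difference 1.43, SE 0.261; adjusted p = 0.00185 by limma).

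Type I collagen, the main fibre of connective tissue, is built from the chains of Col1a1 and Col1a2. Col1a1 (ENSMUSG00000001506, chr11:94936224-94953042) stood at 10.02, 7.84, 6.36 and 13.1 FPKM in WT 1, 2, 3 and 5 and at 33.4, 16.5, 15.7 and 15.4 FPKM in TG 1, 2, 3 and 5. TG 1 was far above the other TG libraries, yet the lowest TG library was still above the highest WT library. The log2 difference of Col1a1 was 1.01 (SE 0.273; adjusted p = 0.0141 by limma) and 0.75 without TG 1. Col1a2 stood at 14.04, 7.03, 6.37 and 15.7 FPKM in WT 1, 2, 3 and 5 and at 26.3, 17.04, 17.7 and 17.5 FPKM in TG 1, 2, 3 and 5. The gap between the groups was narrow here, since WT 5 lay close to the lower TG libraries. Col1a2 rose by 0.88 (SE 0.278, adjusted p = 0.0278 by limma), and the adjusted p was 0.0727 without WT 2, 0.0666 without WT 3, 0.0781 without TG 1, 0.0795 with no filter on low values and 0.101 without WT 2 and TG 5.

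Type V collagen sits inside type I fibres and sets their diameter. Col5a2 (ENSMUSG00000026042, chr1:45374321-45503282) had the smallest standard error of the fibrillar rises. It stood at 4.15, 3.04, 3.64 and 3.32 FPKM in WT 1, 2, 3 and 5 and at 13.7, 11.4, 9.78 and 12.6 FPKM in TG 1, 2, 3 and 5. The lowest TG library was thus well above every WT library, and the log2 difference was 1.501 (SE 0.127; adjusted p = 1.97e-05 by limma). Col5a2 and Col3a1 are neighbours on chromosome 1 on opposite strands, with their 3′ ends facing each other 24.6 kb apart. Col5a1, which encodes the more abundant chain of type V trimers, rose from a WT mean of 2.11 ± 0.568 to a TG mean of 4.27 ± 1.44 FPKM (SD over 4 mice each; log2 difference 0.74, adjusted p = 0.0123 by limma, and 0.0610 without WT 2 and TG 5). Col5a3 rose from a WT mean of 6.25 ± 0.467 to a TG mean of 10.6 ± 3.70 FPKM (SD over 4 mice each; log2 difference 0.63, adjusted p = 0.0275 by limma). Its rise was uneven, with TG 3 and TG 5 at 7.56 and 7.81 FPKM near the highest WT library at 6.80 FPKM. The adjusted p of Col5a3 was 0.0591 without WT 1, 0.0525 without WT 5, 0.0532 without TG 1, 0.0768 without TG 2 and 0.0724 with no filter on low values.

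Col27a1 went the other way. It encodes a fibrillar chain found mainly in cartilage, and with Col24a1 it forms the branch of fibrillar collagens whose helix is interrupted, which shows in their longest blocks of 217 and 216 triplets. Col27a1 (ENSMUSG00000045672, chr4:63214004-63334991) stood at 6.48, 8.44, 4.84 and 10.5 FPKM in WT 1, 2, 3 and 5 and at 1.60, 1.09, 1.44 and 1.13 FPKM in TG 1, 2, 3 and 5. All TG libraries lay below all WT libraries, and WT was the more variable group. The mean was 5.76-fold lower in TG, and the log2 difference was -1.85 (SE 0.198, adjusted p = 7.84e-05 by limma), and the call held under each alternative in which Col27a1 was tested (all but the filter of 5 FPKM), with adjusted p values from 3.28e-05 to 0.00176. Of the 4 remaining fibrillar genes, none was tested: Col2a1, the main chain of cartilage collagen, had no read, which allows a level of up to 0.00649 FPKM in WT and 0.00358 FPKM in TG, Col11a1 and Col24a1 reached at most 0.0274 and 0.0802 FPKM, and Col11a2 at most 0.486 FPKM.

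Markers of other cell types that could hold collagen RNA were measured beside these genes. Of 9 markers of adipose fibroblasts and progenitors, 2 rose, 2 fell and 5 did not pass, shares near the 22.3% higher and 21.8% lower of all tested genes. Cd55 and Thy1 rose by 1.19 and 1.39, and Ly6a and Pdgfra fell by 1.03 and 0.53. The Pdgfra fall had an adjusted p of 0.0283 by limma, and 0.0101 to 0.259 under the alternatives. This list summed to 116 to 234 FPKM in WT and 109 to 124 FPKM in TG. Most of the sum was Ly6a, at 100 to 196 FPKM in WT and 63.1 to 78.0 FPKM in TG. Without WT 2 and TG 5, 2 of these markers rose and 1 fell. Within WT the sum of this list was 227 and 234 FPKM in WT 1 and WT 5 against 144 and 116 FPKM in WT 2 and WT 3. Ly6a alone was at 181 and 196 FPKM in WT 1 and WT 5 against 118 and 100 FPKM in WT 2 and WT 3. WT 1 and WT 5 were also the higher WT libraries for Col1a2 and Col3a1. Of 3 tested myofibroblast markers, Acta2 and Postn fell by 2.07 and 0.85 and Fap rose by 0.80, and the list summed to 23.3 to 28.3 FPKM in WT and 9.74 to 15.1 FPKM in TG. Cartilage markers summed to 1.20 to 8.21 FPKM in WT and 122 to 259 FPKM in TG, which came from Comp, a matrix protein also made outside cartilage; Comp passed the filter through TG alone and Sox9, which ranged over 0.636 to 7.71 FPKM among WT and 0.212 to 0.467 FPKM among TG libraries, through WT alone. Of the 6 tendon and bone markers none was tested, and Bglap and Ibsp were at 0. The part of these cell types in the collagen changes was not tested.

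**Figure D3:**
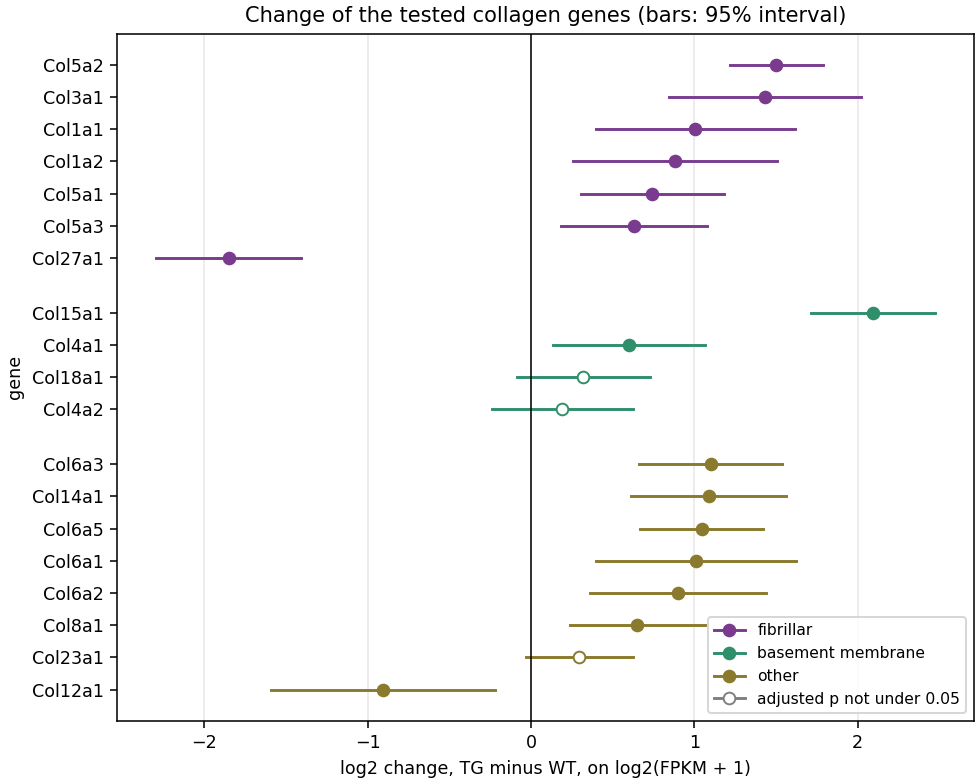
Log2 change of the 19 tested collagen genes, TG minus WT, with its 95% interval from limma, ordered within class; open circles did not pass an adjusted p of 0.05. Col27a1 at -1.85 and Col12a1 at -0.91 lie to the left of 0, and Col15a1 at 2.09 lies furthest to the right.

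Among basement membrane genes 2 of the 4 tested rose, none fell and 2 did not pass (median log2 difference 0.46). Of all tested genes 22.3% were higher and 21.8% lower. Col15a1 (ENSMUSG00000028339, chr4:47208161-47313167), which encodes a proteoglycan collagen that links the basement membrane to the fibres around it, had the largest log2(FPKM + 1) difference of all tested collagen genes; with a pseudocount of 0.1 that of Col6a5 was larger, at 3.29 against 2.29. It stood at 4.43, 4.04, 4.79 and 4.77 FPKM in WT 1, 2, 3 and 5 and at 30.3, 21.7, 16.02 and 24.1 FPKM in TG 1, 2, 3 and 5. WT libraries were nearly equal, and the lowest TG library was over every one of them. Col15a1 was 5.11-fold higher in TG, and the log2 difference was 2.09 (SE 0.170, adjusted p = 1.57e-05 by limma, at most 0.000549 under the alternatives). Its relative Col18a1, whose tail is cut off as endostatin, ranged from 2.56 to 3.66 FPKM in WT and averaged 4.11 ± 1.41 FPKM in TG (SD over 4 mice; log2 difference 0.32, 95% interval -0.09 to 0.73, adjusted p = 0.180 by limma). The ranges overlapped, and TG 1 alone, at 6.16 FPKM, stood apart from the other TG libraries at 3.16 to 3.91 FPKM.

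Type IV collagen of most tissues is built from the chains of Col4a1 and Col4a2, whose genes lie head to head on chromosome 8 and are read in opposite directions. Their RefSeq start points (GRCm38.p6) are 21 bases apart and each gene reads across the start of the other, so the window from one start to the other, printed to show how closely the pair is placed, belongs to both genes (plus strand, chr8:11312805-11312826).
Col4a1 and Col4a2 start window: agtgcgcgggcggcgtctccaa
Col4a1 (ENSMUSG00000031502), the collagen gene with the highest mean FPKM in WT, stood at 42.3, 54.5, 73.2 and 51.8 FPKM in WT 1, 2, 3 and 5 and at 110, 80.8, 60.3 and 88.0 FPKM in TG 1, 2, 3 and 5. Both groups overlapped, since TG 3 was below WT 3. The change was 0.60 (SE 0.207, adjusted p = 0.0400 by limma), and the call was not firm: leaving out any 1 library other than WT 3 and TG 3 gave an adjusted p of 0.0739 (WT 2), 0.0746 (WT 5), 0.0756 (TG 2), 0.0887 (TG 5), 0.0956 (WT 1) or 0.103 (TG 1), and it was 0.0971 with no filter and 0.141 without WT 2 and TG 5.

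Col4a2 (ENSMUSG00000031503) stood at 24.6, 31.4, 33.2 and 30.01 FPKM in WT 1, 2, 3 and 5 and at 47.6, 30.8, 24.2 and 37.3 FPKM in TG 1, 2, 3 and 5. The TG libraries spread on both sides of the WT libraries, and the change was 0.19 (95% interval -0.24 to 0.62, adjusted p = 0.449 by limma). Division by recovered reads gave Col4a2 a change of 0.61 (adjusted p = 0.0356), which is 0.29 above the median of all genes in that scaling, and it gave Col18a1 a change of 0.65 (adjusted p = 0.0196), which is 0.33 above that median. Of the minor type IV genes, which build the kidney and lens type networks, Col4a3, Col4a4, Col4a5 and Col4a6 reached at most 0.114, 0.336, 0.381 and 0.0329 FPKM and were not tested. Col4a4 ranged over 0.0905 to 0.336 FPKM in WT libraries and 0.0124 to 0.0593 FPKM in TG libraries, without overlap.

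Endothelial cells are one source of type IV collagen. The marker counts here stand against 22.3% higher and 21.8% lower of all tested genes (16.1% and 16.6% without WT 2 and TG 5). All 7 tested endothelial markers fell, among them Pecam1 by 1.80, Cdh5 by 1.86 and Flt1 by 1.77. Their list summed to 57.9 to 139 FPKM in WT and 13.7 to 28.6 FPKM in TG. Of 8 markers of pericytes and smooth muscle, 5 fell, among them Rgs5 by 2.11 and Kcnj8 by 1.61, 1 rose (Cspg4, by 1.88) and 2 did not pass (Myh11 and Cnn1, among those that fell, passed the filter through WT alone), with sums of 130 to 206 FPKM in WT and 44.6 to 97.3 FPKM in TG. All 5 adipocyte markers rose, including Adipoq by 1.51, Cfd by 2.34 and Plin1 by 1.25. Of 5 macrophage markers 4 rose and 1 did not pass, with sums of 129 to 201 FPKM in WT and 229 to 266 FPKM in TG, but without WT 2 and TG 5 only 1 of them passed. Neither of the 2 tested Schwann cell markers and none of the 6 tested skeletal muscle markers was called, no mesothelial marker was tested, and of the epithelial markers Krt5 and Krt14 were at 0 and Krt10, the 1 tested, rose by 0.63, a call lost without WT 2 and TG 5. The part of these cell types in the basement membrane changes was not tested.

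The remaining 25 genes had 8 tested members, of which 6 rose (Col6a5 among them), 1 fell and 1 did not pass (median log2 difference 0.95). Of all tested genes 22.3% were higher and 21.8% lower. Without WT 2 and TG 5, Col6a1, Col6a2 and Col12a1 no longer passed. The 3 main genes of the beaded filament were among those that rose. Col6a1, Col6a2 and Col6a3 encode the 3 chains of the common type VI molecule. Col6a3 (ENSMUSG00000048126, chr1:90765923-90843971), the longest chain, whose released end is the peptide endotrophin, stood at 6.68, 4.77, 4.29 and 7.72 FPKM in WT 1, 2, 3 and 5 and at 15.9, 13.8, 9.75 and 15.03 FPKM in TG 1, 2, 3 and 5. Its groups did not overlap, with TG 3 the lowest TG library (log2 difference 1.10, SE 0.195, adjusted p = 0.00160 by limma). Col6a1 (ENSMUSG00000001119) stood at 13.6, 9.62, 9.07 and 15.7 FPKM in WT 1, 2, 3 and 5 and at 36.7, 25.3, 14.1 and 27.8 FPKM in TG 1, 2, 3 and 5. Only TG 3 lay within the WT range. Col6a1 rose by 1.01 (adjusted p = 0.0140 by limma, and 0.0845 without WT 2 and TG 5), and its neighbour Col6a2 rose by 0.90 (adjusted p = 0.0132 by limma, and 0.0692 without them).

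Col6a5 encodes an alternative to the Col6a3 chain. It had 2, 7, 1 and 0 recovered reads in WT 1, 2, 3 and 5 and 313, 207, 109 and 360 in TG 1, 2, 3 and 5, which correspond to at most 0.0553 FPKM in WT and 0.507 to 1.67 FPKM in TG. It was near the detection limit in WT and low but present in each TG library, with a 56.7-fold higher mean. Since the filter on low values chose Col6a5 through TG, its difference of 1.04 in log2(FPKM + 1) is given with the limma fit that has no such filter (adjusted p = 0.00393). The related Col6a4 reached at most 0.0205 FPKM and Col6a6 at most 0.238 FPKM. STAT3 binds palindromes of the form TTCNNNGAA, which is its own reverse complement, so 1 search covers both strands. The 250 bases before the RefSeq start hold such a match in 2 of the 35 collagen genes that have an entry, Col6a5 and Col28a1, and in 8.13% of the 27025 genes of the RefSeq promoter table. The window of Col6a5 is shown because that gene rose from near 0, with the match in capitals (GRCm38.p6, chr9:105960644-105960893, minus strand).
Col6a5: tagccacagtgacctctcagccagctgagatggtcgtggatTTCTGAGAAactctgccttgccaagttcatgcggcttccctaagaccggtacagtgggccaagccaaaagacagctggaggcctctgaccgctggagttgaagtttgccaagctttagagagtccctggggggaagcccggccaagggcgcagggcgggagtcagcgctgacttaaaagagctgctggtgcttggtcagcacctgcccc
The match is a description of the letters in this window.

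Fibril-associated collagens decorate the surface of fibres, and the 2 tested members changed in opposite directions. Col14a1 (ENSMUSG00000022371) stood at 1.63, 0.615, 0.311 and 0.859 FPKM in WT 1, 2, 3 and 5 and at 3.29, 2.05, 3.33 and 2.72 FPKM in TG 1, 2, 3 and 5. All TG libraries were above all WT libraries, and Col14a1 rose by 1.09 (adjusted p = 0.00258 by limma). Col12a1 (ENSMUSG00000032332), its close relative in domain structure, stood at 0.674, 2.54, 4.37 and 2.60 FPKM in WT 1, 2, 3 and 5 and at 1.21, 0.608, 0.549 and 0.679 FPKM in TG 1, 2, 3 and 5. WT 1 lay among the TG libraries, and the other WT libraries above them. Col12a1 fell by 0.91 (SE 0.306, adjusted p = 0.0366 by limma), but the adjusted p was 0.0745 to 0.0856 when WT 2, WT 3, WT 5, TG 2, TG 3 or TG 5 was left out and 0.106 with no filter. It was 0.0751 with a rescaling that leaves out abundant genes, 0.0757 with division by recovered reads, 0.0712 with voom and 0.132 without WT 2 and TG 5.

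Col8a1, a network collagen of vessel walls and fibrotic tissue, rose from a WT mean of 0.406 ± 0.256 to a TG mean of 1.22 ± 0.463 FPKM (SD over 4 mice each; log2 difference 0.65, adjusted p = 0.0168 by limma, and 0.0533 with no filter on low values). The transmembrane collagen gene Col23a1 had a WT mean of 0.543 ± 0.260 and a TG mean of 0.883 ± 0.200 FPKM (SD over 4 mice each; log2 difference 0.30, 95% interval -0.03 to 0.63, adjusted p = 0.129 by limma). It was called higher with division by recovered reads (log2 difference 0.46, adjusted p = 0.0252), which is 0.15 above the median of all genes in that scaling. The 25 untested collagen genes reached at most 1.06 FPKM in any library, the value of Col16a1 in TG 1, and 13 of them stayed under 0.1 FPKM throughout. Next to it came Col7a1, the anchoring fibril of skin, at most 0.900 FPKM, Col28a1 at most 0.819 FPKM, Col20a1 at most 0.815 FPKM and Col13a1 at most 0.517 FPKM. Col7a1 ranged over 0.223 to 0.900 FPKM in WT libraries and 0.0230 to 0.0775 FPKM in TG libraries, and Col20a1 over 0.275 to 0.815 and 0.101 to 0.221 FPKM; neither was tested. Col8a2, Col9a3, Col10a1, Col17a1, Col19a1, Col22a1, Col25a1 and Col26a1 reached at most 0.113, 0.116, 0.0961, 0.0736, 0.0634, 0.0182, 0.0262 and 0.0428 FPKM. Col9a1 and Col9a2, of cartilage type IX collagen, had no read. Of the 25 untested genes, 15 had a lower mean in TG, 7 a higher mean and 3 no read in any library. These differences were not tested.

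Summed over its members, each class was higher in TG, and the sums are given without a test. Fibrillar genes summed to 87.2, 60.9, 51.4 and 105 FPKM in WT 1, 2, 3 and 5 and to 202, 137, 152 and 158 FPKM in TG 1, 2, 3 and 5, a 2.13-fold higher mean. Basement membrane genes summed to 74.8, 93.4, 115 and 89.4 FPKM in WT and to 195, 137, 104 and 154 FPKM in TG, in the same order of libraries, a 1.58-fold higher mean. The other genes summed to 31.9, 26.0, 25.2 and 38.5 FPKM in WT and to 80.6, 58.4, 38.7 and 63.4 FPKM in TG, a 1.98-fold higher mean. Only the basement membrane sums overlapped, through TG 3 below WT 3. Fibrillar genes made up 37.7% ± 9.01 of all collagen FPKM in WT and 44.4% ± 4.84 in TG, and basement membrane genes 47.2% ± 10.7 and 39.5% ± 2.83 (SD over 4 mice each). Col4a1 led with 27.7% of collagen FPKM in WT, followed by Col3a1 with 18.2%, and in TG Col3a1 led with 25.5%, followed by Col4a1 with 23.0%. These shares and ranks depend on the gene lengths used. The deposited length of Col3a1 is 9816 bases against a coding transcript of 5564, and that of Col4a1 7464 against 6615. Division by length thus lowers the FPKM of Col3a1 more, and transcript lengths could give another order.

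The libraries of a group differed in a way that ran through several members. WT 3 was the lowest WT library for 9 of the 19 tested genes, including Col1a1, Col1a2, Col3a1 and the 3 main type VI genes, and the highest for 5, which were Col4a1, Col4a2, Col12a1, Col15a1 and Col18a1. WT 5 was the highest WT library for 7, among them Col1a1, Col3a1 and Col6a1. In TG the order was more uniform, with TG 1 the highest for 16 of 19 and TG 3 the lowest for 13. The coefficient of variation had a median of 30.7% in WT and 28.5% in TG, with extremes of 7.47% and 120% in WT and of 13.6% and 43.5% in TG.

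**Figure D4:**
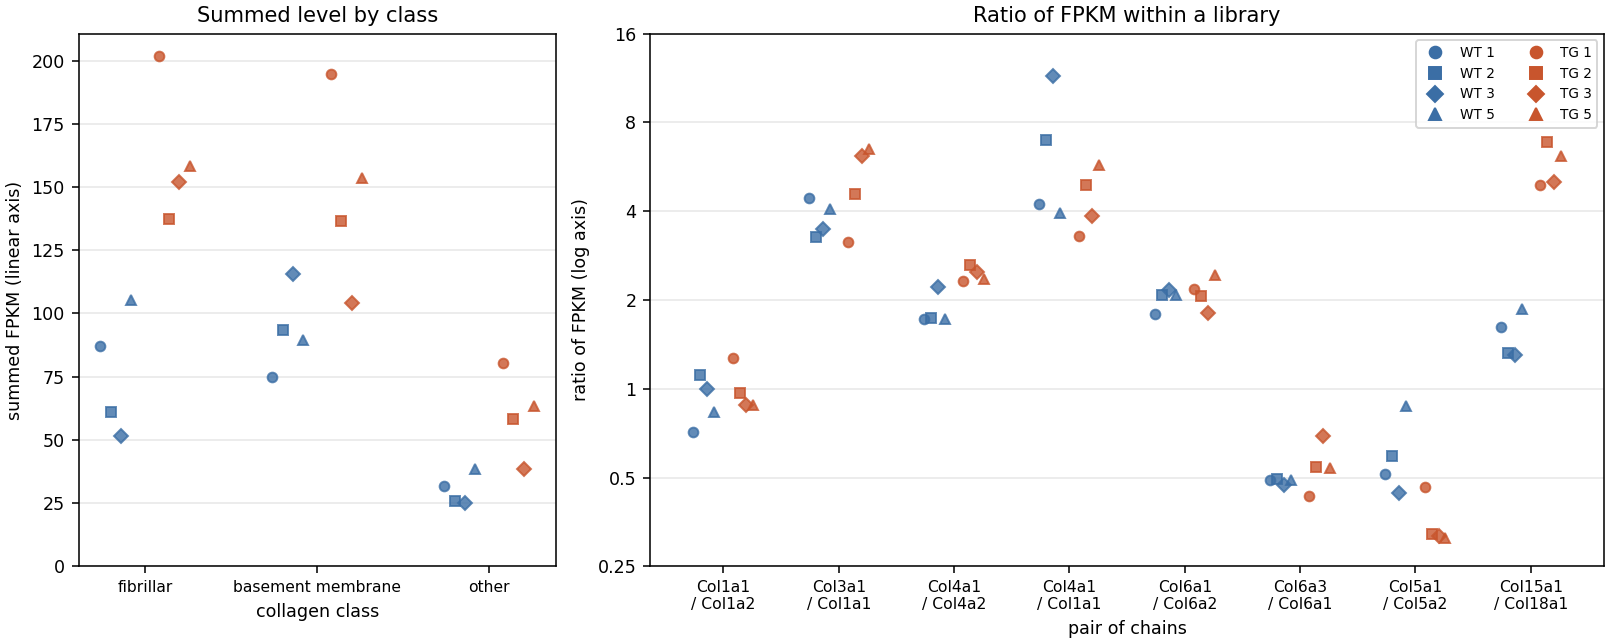
Left: summed FPKM of each collagen class in every library, on a linear axis from 0. Right: ratio of FPKM between 2 collagen chains within a library, on a log axis; colours give the group and symbols the label number. The Col15a1 to Col18a1 ratio is 1.31 to 1.86 in WT and 4.92 to 6.85 in TG, while the Col6a1 to Col6a2 ratio overlaps between the groups.

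Ratios between chains within a library do not depend on how libraries were scaled, and 8 were compared by two-sided exact permutation tests over 70 assignments, where 0.0286 is the smallest possible p. The ratio of Col15a1 to Col18a1 was 1.62, 1.32, 1.31 and 1.86 in WT 1, 2, 3 and 5 and 4.92, 6.85, 5.03 and 6.16 in TG 1, 2, 3 and 5. The groups did not overlap (log2 difference 1.91, exact p = 0.0286, 0.114 after adjustment over the 8 ratios). The ratio of Col4a1 to Col4a2, genes of chains joined in one molecule, was 1.72, 1.74, 2.21 and 1.73 in WT and 2.32, 2.63, 2.49 and 2.36 in TG, in the same order. It was higher in 4 of 4 TG libraries than in any WT library (log2 difference 0.41, exact p = 0.0286, 0.114 after adjustment), although neither ratio passes the adjusted threshold in this design. The ratio of Col5a1 to Col5a2 was 0.606 ± 0.188 in WT and 0.354 ± 0.0733 in TG (SD over 4 mice each; exact p = 0.0571, adjusted 0.152).

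The other ratios overlapped between the groups. Col1a1 to Col1a2 was 0.916 ± 0.177 in WT and 1.001 ± 0.185 in TG (SD over 4 mice each; exact p = 0.486, adjusted 0.555). Both chains share 1 protein that holds 2 copies of the Col1a1 product. The level of the RNA ratio cannot be read against that number, since it depends on length. The deposited gene length of Col1a2, 12426 bases, is far longer than its 5348-base coding transcript, while that of Col1a1 is 6563 bases against 5930. Division by length thus lowers the FPKM of Col1a2 more than that of Col1a1, which raises the ratio. Col6a1 to Col6a2 was 2.03 ± 0.161 in WT and 2.12 ± 0.259 in TG (exact p = 0.600, adjusted 0.600). The level of that ratio also depends on length. The deposited lengths are 4380 bases for Col6a1 and 8326 for Col6a2, against coding transcripts of 4100 and 3949 bases. Col6a3 to Col6a1 was within 0.473 to 0.496 in WT and spread from 0.433 to 0.693 in TG (exact p = 0.343, adjusted 0.457). The ratios of Col3a1 and of Col4a1 to Col1a1 had exact p values of 0.229 and 0.286, adjusted 0.457 each.

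**Figure D5:**
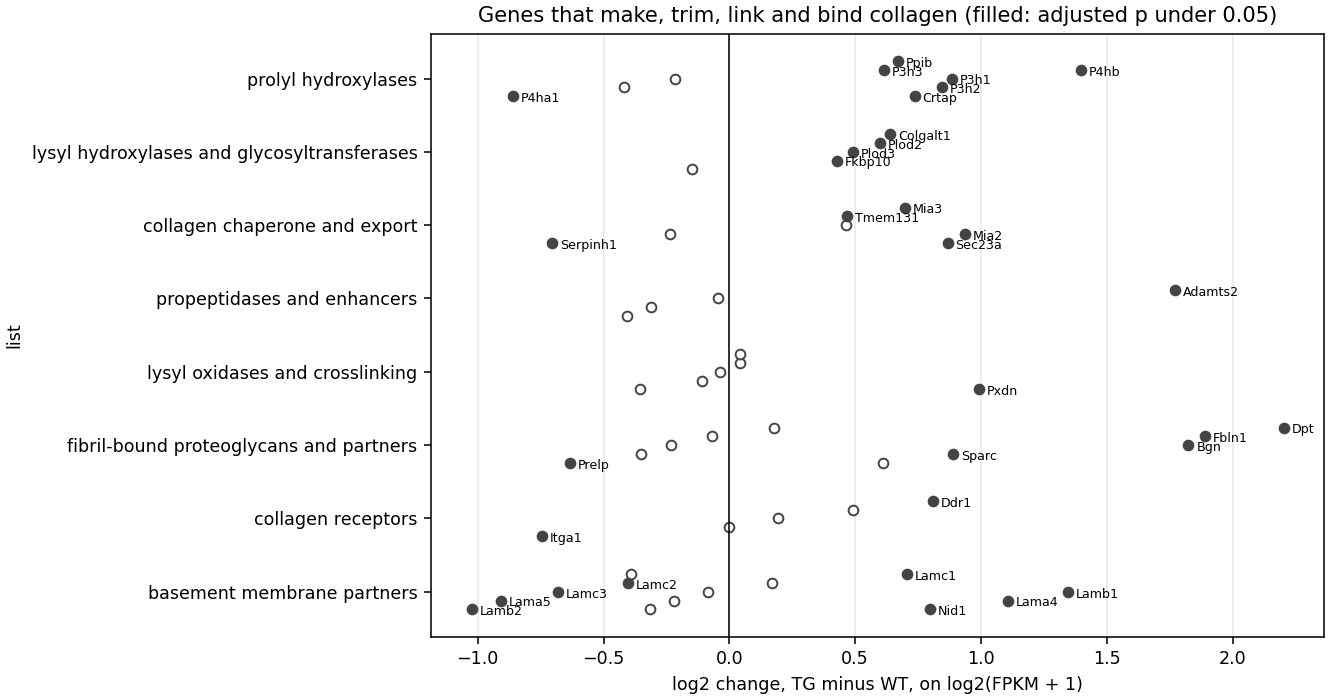
Log2 change, TG minus WT, of tested genes in 8 lists that act on or bind collagen; each point is a gene, and filled, named points passed an adjusted p of 0.05. P4hb at 1.40 and Adamts2 at 1.77 lie to the right, and Serpinh1 at -0.70 and P4ha1 at -0.86 to the left.

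In the prolyl and lysyl hydroxylase lists, most tested genes were higher in the main test, against 22.3% higher and 21.8% lower of all tested genes. Of 9 tested genes of the prolyl hydroxylase list, which holds hydroxylase subunits and their partners, 6 rose, 1 fell and 2 did not pass (median log2 difference 0.67). P4hb, the shared subunit, rose from a WT mean of 44.7 ± 6.26 to a TG mean of 119 ± 11.3 FPKM (SD over 4 mice each), and P3h1 and P3h3, prolyl 3-hydroxylases, rose by 0.89 and 0.61. P4ha1, a catalytic subunit, fell by 0.86 (adjusted p = 0.0223 by limma, between 0.00149 and 0.122 under the alternatives, and 0.0524, 0.0641 and 0.0505 without WT 3, TG 2 and TG 5). With division by recovered reads, 6 genes of this list were higher and 0 lower, so the P4ha1 call was lost. In that scaling 5536 of all 12508 tested genes were higher and 1442 lower. Of the other P4ha genes, P4ha2 did not pass (log2 difference -0.22, adjusted p = 0.315 by limma) and P4ha3 was not tested. Of 5 tested genes of the list of lysyl hydroxylases, sugar transferases and a partner, 4 rose and 1 did not pass (median 0.49). Colgalt1 rose by 0.64, Plod2 by 0.60 and Plod3 by 0.49. Without WT 2 and TG 5 only 1 gene of this list passed, where 16.1% of all tested genes were higher and 16.6% lower.

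Of 7 genes for the folding and export of procollagen, 4 rose, 1 fell and 2 did not pass (median 0.47), against 22.3% higher and 21.8% lower of all tested genes. Sec23a, a coat protein of export vesicles, rose by 0.87, and the large-cargo receptors Mia2 and Mia3 by 0.94 and 0.70. Serpinh1, the collagen-specific chaperone HSP47, moved against most collagen genes, from a WT mean of 195 ± 46.3 to a TG mean of 119 ± 24.3 FPKM (SD over 4 mice each). Its log2 difference of -0.70 had an adjusted p of 0.0180 by limma, between 0.00733 and 0.324 under the alternatives. This p was 0.0554 and 0.0524 without TG 2 and TG 3. The groups overlapped, with TG 1 at 144 FPKM above WT 2 at 140 FPKM. With division by recovered reads, 5 genes of this list were higher and 0 lower, so the Serpinh1 call was lost. In that scaling 5536 of all 12508 tested genes were higher and 1442 lower. Of 4 tested genes of the list of propeptidases and their enhancers, 1 rose and 3 did not pass (median -0.18). The gene that rose was Adamts2, which trims the front end of fibrillar procollagens. Its WT mean was 2.10 ± 0.262 and its TG mean 9.65 ± 1.82 FPKM (SD over 4 mice each). Of 6 crosslinking genes 1 rose, Pxdn, the peroxidase that crosslinks type IV collagen, by 0.99, and 5 did not pass, among them all 5 lysyl oxidase genes (median 0.00). In the propeptidase and crosslinking lists the share that rose was near the 22.3% of all tested genes.

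Of 10 tested proteoglycans and other partners of fibrils, 4 rose, 1 fell and 5 did not pass (median 0.40). Of all tested genes 22.3% were higher and 21.8% lower. Dpt, which binds fibrils, rose by 2.20, the fibulin Fbln1 by 1.89, and the small proteoglycan Bgn by 1.82. Without WT 2 and TG 5 these counts were 4 higher and 0 lower, where 16.1% of all tested genes were higher and 16.6% lower. With division by recovered reads they were 6 higher and 0 lower, where 5536 of all 12508 tested genes were higher and 1442 lower. Of 5 tested collagen receptors 1 rose, Ddr1, by 0.81, 1 fell, the integrin chain Itga1, by 0.75, and 3 did not pass (median 0.19). These shares were near the 22.3% higher and 21.8% lower of all tested genes. With division by recovered reads 3 receptors were higher and 1 lower, against the same 5536 higher and 1442 lower of all 12508 genes. Of 13 tested genes of other basement membrane proteins 4 rose, 4 fell and 5 did not pass (median -0.22), against the same 22.3% and 21.8% of all tested genes. The laminin genes Lamb1 and Lama4 rose by 1.34 and 1.11, and Lamc3, which passed the filter through WT alone, had a WT mean of 0.837 ± 0.226 and a TG mean of 0.141 ± 0.0886 FPKM (SD over 4 mice each). Without WT 2 and TG 5 the counts were 3 higher and 2 lower, against 16.1% higher and 16.6% lower of all tested genes. With division by recovered reads they were 4 higher and 2 lower, against 5536 higher and 1442 lower of all 12508 genes.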

How the data were processed

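The authors deposited 1 table of FPKM per gene and library for 8 libraries of brown adipose tissue (4 WT, 4 TG). Per the labels' protocols, frozen tissue gave TRIzol RNA for TruSeq libraries. The submitters' processing notes name the build mm10 and, among tools, featureCounts 1.5.0-p3, HISAT2 2.0.5 and bcl2fastq; the sources used here give neither strand setting nor annotation release. Columns were matched to mice by the names in the labels.

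Whole read numbers could be recovered, since multiplying FPKM by gene length gave steps of 1 size in each library (largest distance from a whole number 6.52e-09); they were used for depth, floors (3 reads over a group) and 2 alternatives; floors cover counting error only. The two-sided test was eBayes of limma 3.58.1 (R 4.3.3, variance trend on) for log2(FPKM + 1), kept to the 12508 genes that had 0.5 FPKM or more in 4 or more libraries, and Benjamini-Hochberg adjustment ran over all of these. The design text counts mice, so the spread behind each p-value is that of mice, and the labels give no batch. The procedure was tested on simulated data. Alternatives covered the pseudocount, filter, scaling (upper quartile, quantile, leaving out the 20 most abundant, mitochondrial and haemoglobin genes, all recovered reads), voom, protein-coding genes alone, the replicate block, a rule of at least 2-fold in FPKM + 1 and leaving out libraries. Named are all tested collagen genes and up to 3 called members of each other list with the lowest p. P4ha1, P4ha2, P4ha3, Pdgfra and Serpinh1 were named after their values were seen. The members, classes and lists were chosen with earlier results of these data known. Of the marker lists, Schwann cell, skeletal muscle, epithelial, mesothelial and macrophage lists were also counted. Promoter windows are from RefSeq and coding sequences from GENCODE M21. Figures were drawn with matplotlib 3.10.9.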

Additional observations from a re-analysis of the deposited data

Results flagged for a closer look

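A sample was picked out where its gap to the nearest of the other 3 as a share of the range of its group of 4 exceeded Dixon's 95% critical value; over 60 such groups of values, chance alone would pick out about 1 in 20. Col1a1 in TG 1 (33.4 FPKM) lay above TG 2, TG 3 and TG 5, and so did Col1a2 in TG 1 (26.3 FPKM). The ratio of Col5a1 to Col5a2 was 0.464 in TG 1, above the other TG libraries. The ratio of Col4a1 to Col4a2 was 2.21 in WT 3, above the other WT libraries. TG 1 was the highest TG library for 16 of the 19 tested collagen genes.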

How the results depend on the processing

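No tested collagen gene changed direction under any of the alternatives run. Higher collagen genes numbered 9 without WT 2 and TG 5, 8 with a log2(FPKM + 1) difference of at least 1 (the 2-fold rule) and 11 to 14 when single libraries were left out. Lower collagen genes numbered 1 with no filter on low values, in the rescaled values, with all recovered reads, with voom, with the replicate block, without WT 2 and TG 5 and with the 2-fold rule, 0 with a filter of 5 FPKM, and 1 to 2 when single libraries were left out; 0 of the other class fell under each of these 8 settings (0 to 1 with single libraries left out), and 0 fibrillar genes at 5 FPKM. Higher fibrillar genes numbered 3 with the 2-fold rule and 4 to 6 with single libraries left out, and higher genes of the other class 3 at 5 FPKM. Col1a2, Col5a1, Col6a1 and Col6a2 also lost their calls without WT 2 and TG 5. Higher basement membrane genes numbered 1 with no filter, the block, without WT 2 and TG 5 and the 2-fold rule, and 1 to 2 with single libraries left out. They numbered 4 with all recovered reads and with voom, where 44.3% and 45.1% of all tested genes were higher. The log2 differences of the summed fibrillar, basement membrane and other genes were 1.54, 1.09 and 1.43 with all recovered reads and 1.47, 1.06 and 1.38 in the rescaled values. These 2 settings raised the median change of all genes by 0.30 and 0.27. In the values as deposited the means of the sums were 2.13-fold, 1.58-fold and 1.98-fold higher in TG. The ratio of Col6a1 to Col6a2, which did not pass, had log2 differences of -0.010 to 0.13 with single libraries left out. The cause of these shifts was not tested, apart from the fewer genes or libraries that a filter or an omission leaves. The labels give same-numbered mice nothing in common but the number. Their deviations from the group mean correlated by -0.19, -0.17, 0.04 and -0.24. In no same-numbered pair was each library the best correlate of the other. Whether such mice share more than the number was not tested. With the block, 12 collagen genes were higher and 1 lower, with adjusted p = 0.0995 for Col4a1, 0.0505 for Col8a1 and 0.0687 for Col12a1 (limma); ratios under the block cannot go below p = 0.125 (exact sign-flip permutation). Depth limits the 25 untested genes, of which 13 stayed under 0.1 FPKM.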
